A study of Mus musculus with 16 samples.

Results

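The 8 genes described here encode proteins that shorten the life of messenger RNA: the zinc-finger proteins Zfp36, Zfp36l1 and Zfp36l2, the antiproliferative proteins Btg1 and Btg2, the Regnase family members Zc3h12a (Regnase-1) and Zc3h12d (Regnase-4), and Rc3h1 (Roquin-1). They were chosen by name, and all 8 of 8 were found among the 19195 named genes of the deposited table and passed the filter on low values. Their RNA was measured in sorted regulatory T cells (Tregs), which express Foxp3 and hold immune responses in check. The cells came from Foxp3-GFP mice aged 8 weeks, taken 7 days after an experimental myocardial infarction (MI). There were 4 groups of 4 libraries: CCR8+ and CCR8- Tregs of the injured heart, and CCR8+ and CCR8- Tregs of MLN, the mediastinal lymph node draining the chest. All animals carried the reporter and had an infarct, so no uninjured group enters any comparison. Each library came from about 100 cells sorted by surface CCR8, a chemokine receptor, and the labels do not say whether libraries came from separate or pooled mice, so the p-values measure the spread between libraries.

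ZFP36 proteins bind AU-rich elements in the 3' untranslated region (UTR) of cytokine and early-response transcripts and recruit the CCR4-NOT complex, which removes the poly(A) tail. BTG proteins bind the deadenylase subunits of that complex and are known to keep T cells quiescent. Regnase-1 is an endonuclease that cuts stem-loops in 3' UTRs, and Roquin-1 binds the same kind of stem-loop and recruits deadenylases; both are known to restrain T cell activation.

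The levels are log2(FPKM + 1), which is a level per transcript length, and a difference is between 2 such levels. Folds are ratios of FPKM + 1, and the number of reads behind each value is unknown. Genes count as called where limma, fitted to all 16 libraries in 1 model, gave a Benjamini-Hochberg adjusted p below 0.05 over the 10369 genes tested (two-sided). The 9 measured T cell markers had a mean of 7.81 to 8.56 in heart CCR8+ and 7.79 to 8.89 in heart CCR8- libraries. In the node that mean was 8.64 to 9.06 for CCR8+ and 8.37 to 8.88 for CCR8- libraries, and none of the 6 Treg markers was at 0 throughout a group. The Treg markers had a mean of 6.61 to 6.97 in heart CCR8+, 6.02 to 6.89 in heart CCR8-, 6.90 to 7.65 in CCR8+ of the node and 5.48 to 6.14 in CCR8- of the node. Macrophage, fibroblast and endothelial transcripts were higher in most heart libraries and B cell transcripts in the node. The mean of 11 macrophage and monocyte markers was 1.01 to 6.50 in heart CCR8+ and 3.18 to 4.53 in heart CCR8- libraries, against 1.56 to 2.09 (CCR8+) and 0.96 to 1.29 (CCR8-) in those of the node. The mean of 10 fibroblast markers was 0.66 to 3.90 and 3.12 to 4.91 in these heart groups, against 0.02 to 0.44 and 0.01 to 0.49 in the MLN groups in the same order. That of 9 endothelial markers was 0.84 to 2.07 and 1.23 to 6.62, against 0.35 to 0.53 and 0.46 to 0.71. The mean of 6 B cell markers was 0.10 to 1.38 and 0.07 to 0.88 in the heart groups, against 1.86 to 3.92 and 0.39 to 2.79 in the MLN groups. Adgre1 and Fcgr1 of macrophages, Lum of fibroblasts and Cdh5 of endothelial cells were listed at 0 in all 8 MLN libraries, but other macrophage markers were not: Lyz2 measured 1.44 to 9.69 in heart CCR8+ libraries, against 5.08 to 6.98 in MLN CCR8+ libraries, and Cd68 2.47 to 5.60 in heart CCR8- libraries, against 1.69 to 3.22 in MLN CCR8- libraries. Pdgfra of fibroblasts was listed at 0 in all 8 heart libraries. In bulk samples, fewer cells of a type and less RNA per cell cannot be told apart.

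Most of these genes are compact. Zfp36 (chromosome 7, 28376784 to 28380253), Zfp36l1 (chromosome 12, 80107754 to 80113013), Zfp36l2 (chromosome 17, 84183931 to 84187947), Btg1 (chromosome 10, 96617006 to 96622809) and Btg2 (chromosome 1, 134075170 to 134079120) each have a principal transcript of 2 exons in GENCODE vM21 (GRCm38). Their genes span 3470 to 5804 bases, against a median of 23049 bases and 9 exons over the tested genes with a 3' UTR. Zc3h12a (chromosome 4, 125118423 to 125127840) and Zc3h12d (chromosome 10, 7832470 to 7870396) have 6 exons, and Rc3h1 (chromosome 1, 160906418 to 160974978) has 20. Zfp36 and Btg2 are known as immediate early genes, a class that tends to be short.

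RefSeq promoter windows (GRCm38.p6) were found for 7 of the 8 genes, all but Zfp36l2. The 250 bases before the transcription start of Btg1, Zfp36l1 and Btg2 are shown because Btg1 and Zfp36l1 are among the members called below, while Btg2, of the same family as Btg1, was not. Capitals mark, on either strand, the cyclic AMP response element (TGACGTCA) and its core (TGACG), the AP-1 site (TGANTCA), the TATA box (TATAAA) and the CCAAT box (CCAAT). The core lies on both strands within the full element, and the TATA and CCAAT matches of Zfp36l1 overlap by 1 base.
Btg1, chr10:96616751-96617000, + strand: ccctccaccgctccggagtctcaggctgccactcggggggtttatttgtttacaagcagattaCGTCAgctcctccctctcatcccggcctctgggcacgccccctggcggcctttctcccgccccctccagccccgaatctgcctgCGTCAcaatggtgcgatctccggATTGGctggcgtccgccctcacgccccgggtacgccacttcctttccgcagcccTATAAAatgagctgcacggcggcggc
Zfp36l1, chr12:80113014-80113263, - strand: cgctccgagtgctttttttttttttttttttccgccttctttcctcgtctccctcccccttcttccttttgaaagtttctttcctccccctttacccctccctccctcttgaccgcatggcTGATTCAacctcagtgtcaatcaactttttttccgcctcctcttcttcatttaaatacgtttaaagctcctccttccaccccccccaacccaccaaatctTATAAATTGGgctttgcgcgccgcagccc
Btg2, chr1:134079156-134079405, - strand: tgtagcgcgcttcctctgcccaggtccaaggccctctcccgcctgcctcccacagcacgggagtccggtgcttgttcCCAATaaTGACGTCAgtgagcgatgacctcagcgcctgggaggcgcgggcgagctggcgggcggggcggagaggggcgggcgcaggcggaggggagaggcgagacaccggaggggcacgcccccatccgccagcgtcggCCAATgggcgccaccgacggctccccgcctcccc
Btg2 held the full cyclic AMP response element, whose first base lay 166 bases before the start, and 1.55% of the 32851 RefSeq windows held one. Btg1 held 2 of the cores (17.8% of windows hold at least 1) and a TATA box 26 bases before the start (12.4%). Zfp36l1 held an AP-1 site (6.75%) and a TATA box 29 bases before the start. Rc3h1 also held an AP-1 site, while the windows of Zfp36, Zc3h12a and Zc3h12d held none of the 5 motifs. A match describes these letters only.

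The 3' UTRs differed in the core of the AU-rich element that ZFP36 proteins are known to bind, searched as TATTTAT on the transcript strand. The principal transcripts of Zfp36, Zfp36l1 and Zfp36l2 held 3 copies each, and 3.56% of the 9956 tested genes with a 3' UTR held at least 3. Rc3h1 held 2 copies, Btg2 held 1, and Btg1, Zc3h12a and Zc3h12d held none. The first copy, in capitals, is shown with 10 bases on each side for the founding member of the ZFP36 family, for Zfp36l1, which is called below, and for Btg2, which held a single copy.
Zfp36, 3' UTR: gtgggcccttTATTTATgacgacttta
Zfp36l1, 3' UTR: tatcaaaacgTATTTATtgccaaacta
Btg2, 3' UTR: aatgaagagcTATTTATacatgttttt
The copy in Btg2 starts 103 bases into its 3' UTR, that in Zfp36 at base 575 and that in Zfp36l1 at base 1150.

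All 8 genes were above 0 in all 16 libraries. Over these libraries Btg1 averaged 8.62, Zfp36 8.08, Zfp36l1 8.00, Zfp36l2 6.74, Btg2 6.55, Zc3h12d 3.59, Zc3h12a 2.81 and Rc3h1 2.42. The first 5 lay above at least 93.8% of the 17229 genes detected in any library, and Rc3h1 above 63.4%. Zc3h12a had the widest range, from 0.61 to 5.28. The plot of levels by library shows this order together with the spread within groups.

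**Figure D1:**
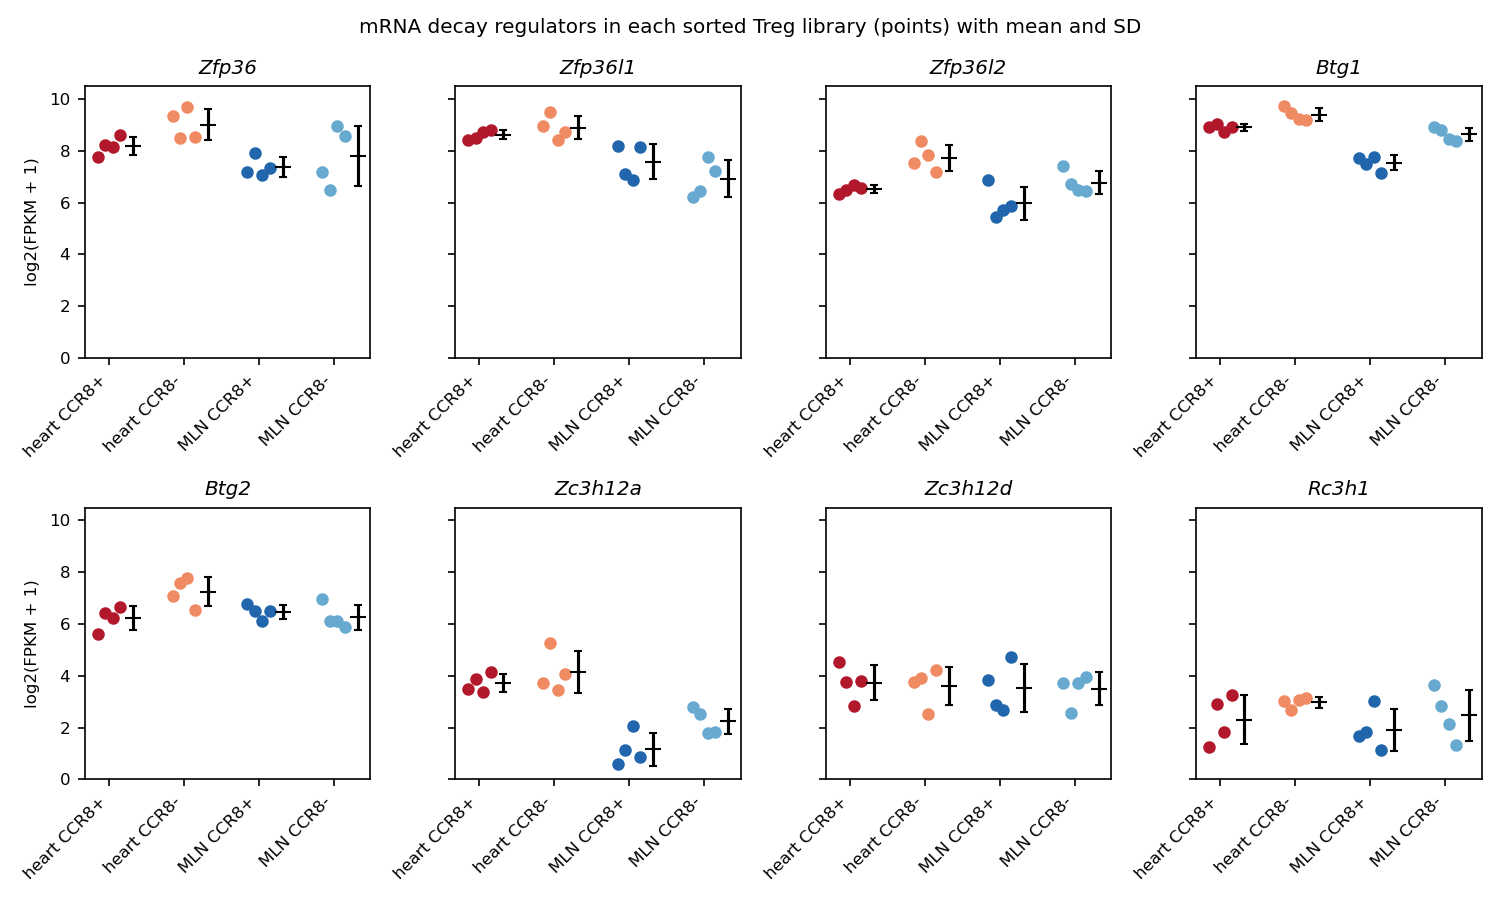
Level of each gene as log2(FPKM + 1) in the 16 libraries (points, replicates 1 to 4 from left to right within a group), with the mean and SD of the 4 libraries of a group in black. Btg1 and Zc3h12a were higher in all 4 heart CCR8+ libraries than in all 4 MLN CCR8+ libraries, and Zc3h12d overlapped in every comparison.

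Among CCR8+ Tregs, Btg1 and Zc3h12a were higher in the injured heart than in the node. This sets the CCR8+ cells of the injured organ against those of its draining node. Passing the test were 2 of the 8 members, both as higher, and 6 did not pass, where 9.79% of all tested genes were called and 5.82% were called as higher. The median difference of the 8 was 0.68, against -0.08 over all tested genes, and 7 of the 8 differences were positive.

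Btg1, which binds the deadenylases of CCR4-NOT, measured 8.93, 9.02, 8.74 and 8.90 in heart CCR8+ libraries, against 7.73, 7.50, 7.76 and 7.15 in MLN CCR8+ libraries. The groups did not overlap, and the heart libraries lay close together. The difference was 1.36 ± 0.18 (SE), a fold of 2.57 (adjusted p = 7.20e-05 in limma). Zc3h12a, the endonuclease Regnase-1, measured 3.48, 3.88, 3.36 and 4.13 in heart CCR8+ libraries, against 0.61, 1.14, 2.07 and 0.85 in MLN CCR8+ libraries. No MLN library reached the heart libraries, and the levels in the node were close to the filter on low values. Its difference was 2.54 ± 0.53 (SE), a fold of 5.82 (adjusted p = 0.00408 in limma).

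Zfp36l1, which with Zfp36l2 is known to restrain growth of developing lymphocytes, measured 8.43, 8.51, 8.72 and 8.81 in heart CCR8+ libraries, against 8.17, 7.10, 6.88 and 8.16 in MLN CCR8+ libraries. All heart values lay above all MLN values, by a narrow margin for MLN replicates 1 and 4, and the difference of 1.04 (95% interval 0.33 to 1.75) did not pass (adjusted p = 0.0583). It passed with MLN CCR8+ replicate 1 or 4 or MLN CCR8- replicate 1 or 3 left out (adjusted p = 0.0371 to 0.0458). Groups without overlap were found for 3 of the 8 genes, and for 17.8% of all tested genes. The differences of Zfp36, Zfp36l2, Zc3h12d and Rc3h1 were 0.21 to 0.80 and that of Btg2 was -0.25, with adjusted p from 0.252 to 0.861, and their groups overlapped.

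Markers of other cells moved with this comparison in both directions, as given above: B cell markers were lower in all 4 heart CCR8+ libraries, and fibroblast and endothelial markers higher. Their part in these differences was not tested. Heart CCR8+ replicate 1 had a mean of 1.01 for macrophage and monocyte markers, below all 4 MLN CCR8+ libraries. Its means were 0.66 for fibroblast and 0.84 for endothelial markers, above all 4. Replicates 2, 3 and 4 had 6.50, 3.16 and 4.47 for macrophage and monocyte markers. Further settings, added after seeing the data, took markers of other cells as a covariate or left out 2 heart libraries (heart CCR8+ replicate 2 and heart CCR8- replicate 3). Btg1 and Zc3h12a were called in both. The covariate holds no B cell markers, and its markers differed between the tissues, so it cannot separate other cells from tissue.

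**Figure D2:**
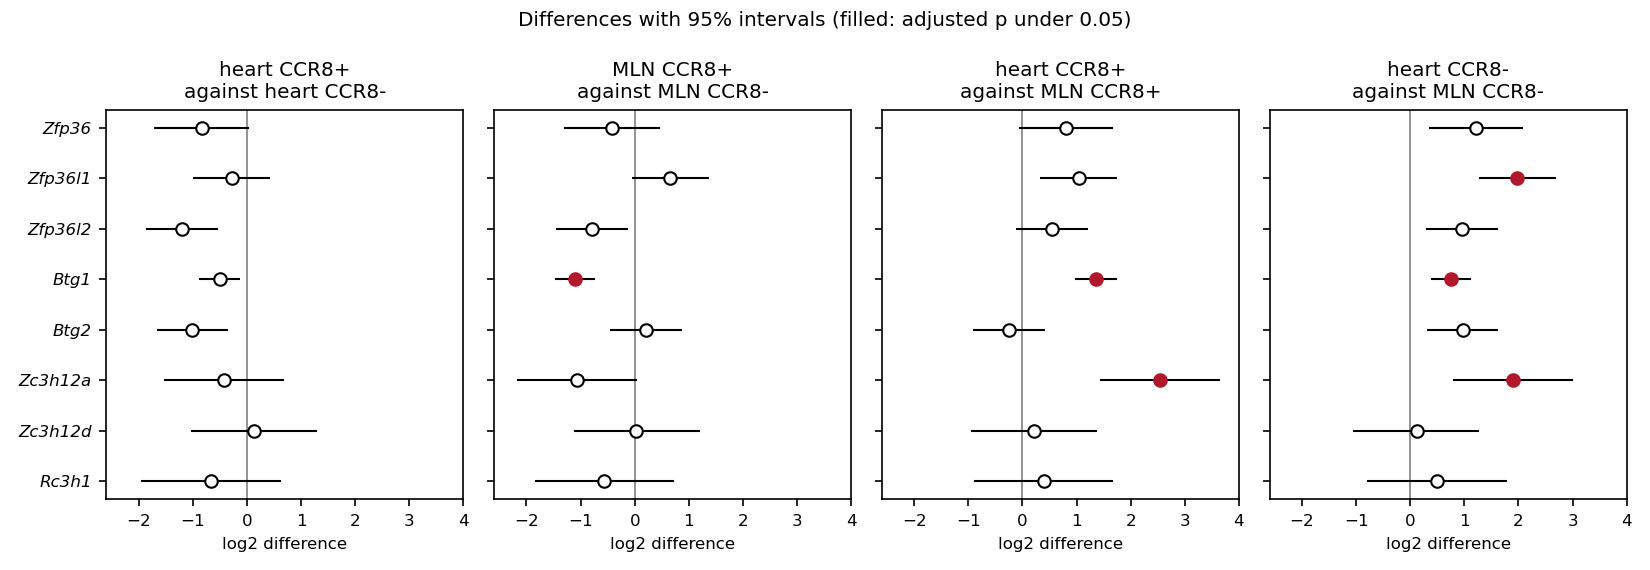
Difference of each gene on the log2 scale, first group minus second, with its 95% interval in each of the 4 comparisons; filled points had an adjusted p under 0.05 in limma. Heart against MLN called Btg1 and Zc3h12a in both CCR8+ and CCR8- Tregs and Zfp36l1 in CCR8- Tregs, and CCR8+ against CCR8- called Btg1 in MLN.

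Among CCR8- Tregs, Zfp36l1, Btg1 and Zc3h12a were higher in the heart. They were 3 of 8, the other 5 did not pass and none was called as lower, where 4.56% of all tested genes were called, 2.95% as higher. All 8 differences were positive, with a median of 0.97, against -0.10 over all tested genes. Zfp36l1 measured 8.95, 9.48, 8.41 and 8.74 in heart CCR8- libraries, against 6.22, 6.45, 7.77 and 7.23 in MLN CCR8- libraries. The groups did not overlap, and the difference was 1.98 ± 0.34 (SE), a fold of 3.95 (adjusted p = 0.00175 in limma).

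Btg1 measured 9.72, 9.44, 9.23 and 9.19 in heart CCR8- libraries, against 8.91, 8.79, 8.47 and 8.39 in MLN CCR8- libraries. Each heart library was above each MLN library, and the difference was 0.76 ± 0.18 (SE; adjusted p = 0.0211 in limma). Zc3h12a measured 3.74, 5.28, 3.44 and 4.07 in heart CCR8- libraries, against 2.79, 2.53, 1.81 and 1.83 in MLN CCR8- libraries. Its groups did not overlap either, and the difference was 1.90 ± 0.53 (SE; adjusted p = 0.0457 in limma). Groups without overlap were these 3 of the 8, against 9.93% of all tested genes.

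The calls of Btg1 and Zc3h12a in CCR8- Tregs did not hold in all fits that left out 1 library. Btg1 lost its call without heart CCR8- replicate 1 (adjusted p = 0.0674) or 2 (0.0509) or without MLN CCR8- replicate 3 (0.0656) or 4 (0.0708). Zc3h12a kept its call in 3 of 16 such fits, those without heart CCR8- replicate 3, MLN CCR8+ replicate 3 or MLN CCR8- replicate 1, and its adjusted p ranged from 0.0438 to 0.140. Most fits without a CCR8+ library, which is in neither group compared, also lost the Zc3h12a call. The difference was still 1.90 in those fits (adjusted p = 0.0503 to 0.0584 in limma), so the call was close to the threshold. Zfp36l1 kept its call in all 16.

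Zfp36, the AU-rich element binder also called tristetraprolin, measured 9.33, 8.49, 9.67 and 8.52 in heart CCR8- libraries, against 7.17, 6.47, 8.97 and 8.55 in MLN CCR8- libraries. MLN CCR8- replicates 3 and 4 lay within the heart range and replicates 1 and 2 well below it, and the difference of 1.21 did not pass (95% interval 0.34 to 2.09, adjusted p = 0.112). It passed without MLN CCR8- replicate 3 (adjusted p = 0.0317). The same replicates 1 and 2 were the lower ones for Zfp36l1 and the higher ones for Btg1, Zc3h12a and Rc3h1. The part of any batch in this split was not tested. Btg2, a p53-inducible relative of Btg1, measured 7.07, 7.59, 7.77 and 6.54 in heart CCR8- libraries, against 6.97, 6.10, 6.11 and 5.89 in MLN CCR8- libraries. One heart library lay among the MLN values, and the difference of 0.97 did not pass (adjusted p = 0.0878); it passed where heart CCR8- replicate 4 (adjusted p = 0.0440) or else MLN CCR8- replicate 1 (0.0345) was left out. Zfp36l2 differed by 0.96 (adjusted p = 0.0954), and passed without MLN CCR8- replicate 1 (adjusted p = 0.0463).

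Macrophage, fibroblast and endothelial markers were higher in all 4 heart CCR8- libraries than in the MLN CCR8- libraries, as given above for whole lists, and heart CCR8- replicate 3 held the most endothelial markers (6.62). Without that library Zfp36l1, Btg1 and Zc3h12a were still called; with heart CCR8+ replicate 2 left out as well, Zc3h12a was not (adjusted p = 0.0586). With markers of other cells as a covariate no member was called (0 of 8), and 12 genes were called of all tested; the differences were then 2.36 for Zfp36l1, 0.93 for Btg1 and 2.21 for Zc3h12a (adjusted p = 0.141, 0.371 and 0.501).

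**Figure D3:**
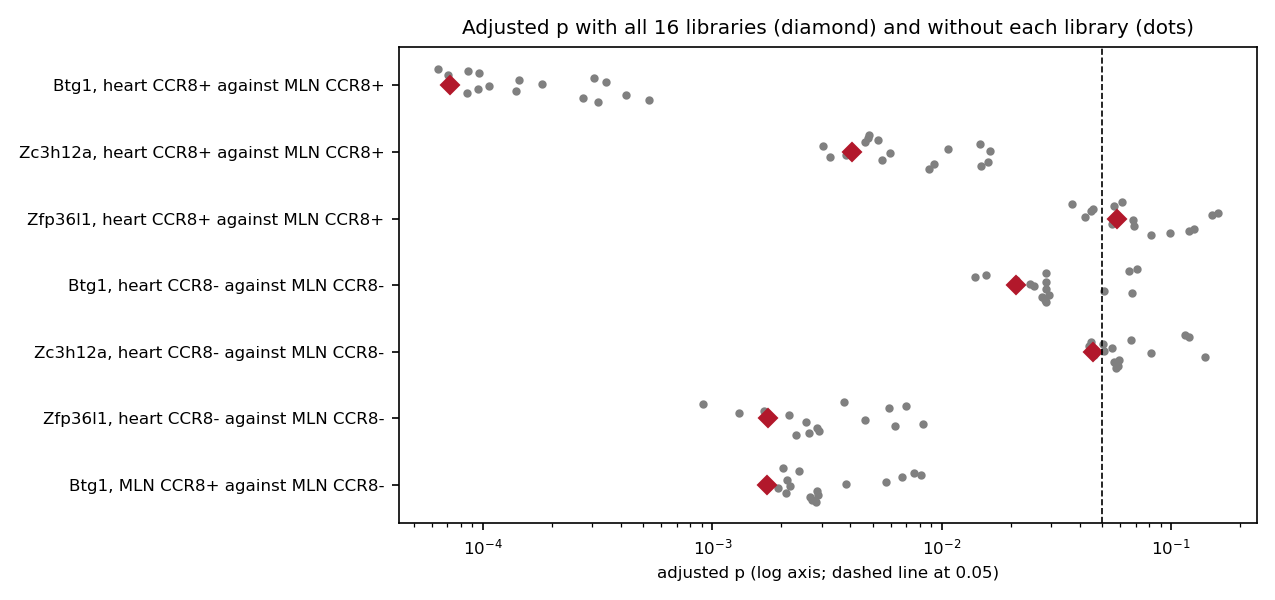
Adjusted p in limma on a log axis for 7 member and comparison pairs, with all 16 libraries (diamond) and without each library in turn (16 dots); the dashed line is at 0.05. Btg1 and Zc3h12a in CCR8+ Tregs, Zfp36l1 in CCR8- Tregs and Btg1 in MLN stayed left of the line in all 16 fits.

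Within the node, Btg1 was lower in CCR8+ than in CCR8- Tregs. It was the only member called of 8, where 4.14% of all tested genes were called, 2.09% as lower. As given above, the MLN CCR8+ libraries measured 7.15 to 7.76, against 8.39 to 8.91 in MLN CCR8- libraries, and the groups did not overlap. Of all tested genes 10.2% had groups without overlap. The difference was -1.10 ± 0.18 (SE), a fold of 0.465 (adjusted p = 0.00173 in limma), and it was called whichever library was left out (adjusted p up to 0.00809). Zfp36l2 measured 6.87, 5.43, 5.72 and 5.85 in MLN CCR8+ libraries, against 7.40, 6.70, 6.50 and 6.43 in MLN CCR8- libraries. Only MLN CCR8+ replicate 1 reached the CCR8- range, and the difference of -0.79 did not pass (adjusted p = 0.186). Zc3h12a differed by -1.07 (95% interval -2.17 to 0.04, adjusted p = 0.303) and Zfp36l1 by 0.66 (-0.05 to 1.37, adjusted p = 0.330). B cell markers averaged 1.86 to 3.92 in MLN CCR8+ libraries, against 0.39 to 2.79 in MLN CCR8- libraries. Treg markers averaged 6.90 to 7.65, against 5.48 to 6.14, and 3 of the 6 were called as higher in MLN CCR8+ Tregs, with a median difference of 1.31. The part of either list in the differences of the members was not tested.

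Within the heart, no member was called between CCR8+ and CCR8- Tregs (0 of 8 in limma), where 0.366% of all tested genes were called. At an unadjusted p under 0.05 there were 3 of 8, all lower, against 11.1% of all tested genes (6.09% higher and 5.06% lower). The median difference of the members was -0.58, against 0.00 over all tested genes. Zfp36l2, known from effector and memory T cells as a brake on cytokine production, measured 6.32, 6.49, 6.67 and 6.58 in heart CCR8+ libraries, against 7.52, 8.36, 7.83 and 7.16 in heart CCR8- libraries. The groups did not overlap, and the difference was -1.20 (95% interval -1.87 to -0.53, adjusted p = 0.138). Btg1 did not overlap either and differed by -0.50 (-0.88 to -0.12, adjusted p = 0.297); groups without overlap were 2 of the 8, against 6.98% of all tested genes.

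Btg2 measured 5.60, 6.43, 6.25 and 6.64 in heart CCR8+ libraries, against 7.07, 7.59, 7.77 and 6.54 in heart CCR8- libraries. Only heart CCR8- replicate 4 fell within the CCR8+ range, and the difference was -1.01 (-1.67 to -0.35, adjusted p = 0.219). Zfp36 measured 7.75, 8.21, 8.13 and 8.59 in heart CCR8+ libraries, and its difference of -0.83 (-1.71 to 0.04) had an adjusted p of 0.476. Fibroblast markers averaged 0.66 to 3.90 in heart CCR8+ libraries, against 3.12 to 4.91 in heart CCR8- libraries, and immediate early and dissociation stress genes 5.16 to 5.88, against 5.80 to 7.02. Of the 20 genes of that list 7 had lower values in heart CCR8+ Tregs at an unadjusted p under 0.05, against 5.06% of all tested genes. Their median difference over the 20 was -0.78, and 0 were called in limma. The part of either list in these differences was not tested.

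The difference between CCR8+ and CCR8- Tregs was also compared between the tissues by the interaction of tissue and CCR8. None of the 8 members was called (0 in limma), where 0.405% of all tested genes were called, and 2 of 8 had an unadjusted p under 0.05, against 12.3% of all tested genes. These were Btg2, with -1.01 in heart and 0.21 in MLN, an interaction of -1.22 (95% interval -2.15 to -0.28, adjusted p = 0.256), and Btg1, with -0.50 in heart and -1.10 in MLN, an interaction of 0.61 (0.07 to 1.14, adjusted p = 0.338). These comparisons share libraries with each other.

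Zc3h12d and Rc3h1 showed no call in any comparison. Zc3h12d averaged 3.74 ± 0.69 in CCR8+ and 3.61 ± 0.75 in CCR8- Tregs of the heart, and 3.53 ± 0.94 in CCR8+ and 3.49 ± 0.63 in CCR8- Tregs of the node (SD, n = 4 each), with lower ends of the 95% intervals of its differences down to -1.13 and upper ends up to 1.37. Rc3h1 averaged 2.31 ± 0.94, 2.98 ± 0.21, 1.92 ± 0.81 and 2.48 ± 0.98 in the same order, with lower ends of its 95% intervals down to -1.96 and upper ends up to 1.79, in different comparisons. Each of these intervals of both genes passed 1 log2 unit on at least 1 side.

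The order of the group means was the same for Btg1, Zc3h12a and Zfp36. Heart CCR8+ Tregs (8.90 ± 0.12 for Btg1 and 3.71 ± 0.36 for Zc3h12a; SD, n = 4 in each group) lay below heart CCR8- Tregs (9.39 ± 0.24 and 4.13 ± 0.81) and above both groups of the node. In the node the CCR8+ Tregs (7.53 ± 0.28 and 1.17 ± 0.64) lay below the CCR8- Tregs (8.64 ± 0.25 and 2.24 ± 0.50). Zfp36 measured 7.75 to 8.59 in CCR8+ and 8.49 to 9.67 in CCR8- Tregs of the heart, and 7.06 to 7.92 in CCR8+ and 6.47 to 8.97 in CCR8- Tregs of the node. Heart CCR8+ and MLN CCR8- libraries overlapped for Btg1 (8.74 to 9.02 and 8.39 to 8.91) and were not compared. Of the neighbours in this order that the comparisons cover, MLN CCR8+ and MLN CCR8- differed beyond their spread for Btg1, while the heart groups did not pass for these genes. Zfp36l1 had means of 8.62 ± 0.18 in CCR8+ and 8.90 ± 0.45 in CCR8- Tregs of the heart, while in the node the CCR8+ Tregs (7.58 ± 0.68) were above the CCR8- Tregs (6.92 ± 0.71) without passing the test. Btg1 was above Btg2 in every library, and Zc3h12a was above Rc3h1 in all 8 heart libraries and below it in 7 of the 8 MLN libraries, both read as levels per length.

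Over the 16 libraries, which share tissue and sort, Btg1 and Zc3h12a had a Pearson r of 0.88 (0.42 after subtracting group means), Btg1 and Zfp36l2 0.78 (0.38), and Zfp36l2 and Btg2 0.74 (0.72). For the other pairs r was between -0.34 and 0.65. Genes most like Btg1 were Rap1b, Sub1 and Hif1a (r = 0.96 each over 16 libraries, and 0.64, 0.64 and 0.50 after subtracting group means). Those most like Zc3h12a were Dennd4a and Nup98 (0.96) and Tax1bp1 (0.95). Those most like Zfp36l1 were Hsp90aa1 and Kdm6b (0.90) and Hsp90b1 (0.88), those most like Zfp36l2 were Mcl1 and Foxo1 (0.94) and Ppp1cc (0.92), and those most like Btg2 were Tpt1 (0.84), Ncor1 (0.82) and the immediate early gene Ier2 (0.80). For Zfp36 the highest were Fam102b (0.86), Scyl2 and Cdk17 (0.85 each), for Zc3h12d Gpatch2 (0.81), Zfp445 (0.80) and LOC115489888 (0.73), and for Rc3h1 Zbtb38 (0.83), Coa7 and Hbp1 (0.77 each). These are descriptions over libraries that differ in tissue and in transcripts of other cells.

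Some relatives of the members were also higher in the heart. Of 8 tested genes of the same families or known to act with them, 3 were called as higher in heart CCR8+ against MLN CCR8+ Tregs. The other 5 did not pass, and the median difference was 1.62. Over all tested genes 5.82% were called as higher there, with a median of -0.08. Zc3h12c, another Regnase, averaged 4.03 ± 0.22 in heart CCR8+ and 1.63 ± 0.34 in MLN CCR8+ Tregs (SD, n = 4 each; adjusted p = 0.00533 in limma). Tob2 and Tob1, which share the BTG domain, averaged 4.93 ± 0.51 and 4.64 ± 0.29 in heart CCR8+, against 2.92 ± 1.08 and 3.03 ± 0.68 in MLN CCR8+ Tregs (adjusted p = 0.0126 and 0.0316). In CCR8- Tregs 1 of the 8 rose, Tob2, at 6.07 ± 0.61 in heart and 2.94 ± 0.31 in MLN (adjusted p = 9.08e-04). The median of the 8 was 1.42, and 2.95% of all tested genes rose, with a median of -0.10. Malt1, the protease known to cleave Regnase-1, differed by 1.64 in CCR8+ and 1.01 in CCR8- Tregs (adjusted p = 0.0613 and 0.341). With markers of other cells as a covariate none of these 8 was called between heart and MLN in either comparison, with medians of 1.47 in CCR8+ and 1.20 in CCR8- Tregs. Between CCR8+ and CCR8- Tregs none of these 8 was called in either tissue, where 0.366% (heart) and 4.14% (MLN) of all tested genes were called. In the heart 3 of them had an unadjusted p under 0.05, against 11.1% of all tested genes.

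Few genes of the machinery that carries out decay were called. In heart CCR8+ against MLN CCR8+ Tregs 4 of 74 genes in 5 lists were lower, or 5.41%, close to the 3.97% of all tested genes called as lower, and none was higher. Of 16 deadenylation genes (CCR4-NOT and PAN with Parn, Pabpc1 and Pabpc4), 1 fell in heart CCR8+ against MLN CCR8+ Tregs and none rose. The median was -0.08, the same as over all tested genes. The gene that fell was Cnot3, a CCR4-NOT subunit, at 1.14 ± 0.69 in heart CCR8+ and 3.28 ± 0.43 in MLN CCR8+ Tregs (adjusted p = 0.0201). Of 17 decapping and 5' to 3' decay genes 1 fell, Edc3, an enhancer of decapping, at 0.60 ± 1.10 in heart CCR8+ and 3.46 ± 0.09 in MLN CCR8+ Tregs (adjusted p = 0.00478). Edc3 passed the filter on low values only with its node libraries, the tissue in which it was higher. Of 16 exosome and Ski complex genes 2 fell, the exosome core subunits Exosc5 (6.09 ± 0.29 in heart CCR8+ and 7.36 ± 0.51 in MLN CCR8+ Tregs, adjusted p = 0.00648) and Exosc4 (4.44 ± 0.55 and 6.02 ± 0.34 in the same order, adjusted p = 0.0387). None of 10 nonsense-mediated decay genes and none of 15 other RNA-binding stability factors was called (0 in limma). With the covariate for other cells 0 genes of the deadenylase, decapping and exosome lists were called, with medians of 0.26, 0.09 and -0.37, against -0.08, -0.20 and -0.46 without it, and without the 2 heart libraries 1, 1 and 2, all lower.

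In heart CCR8- against MLN CCR8- Tregs, and in both comparisons of CCR8+ with CCR8- Tregs, 0 genes of these 5 lists were called in limma. At an unadjusted p under 0.05, 7 of the 16 exosome and Ski genes had lower values in heart CCR8- Tregs, with a median difference of -0.75, against 9.77% of all tested genes. In heart CCR8+ against heart CCR8- Tregs 5 of these 16 had higher values at that p, with a median of 0.51, against 6.09%.

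**Figure D4:**
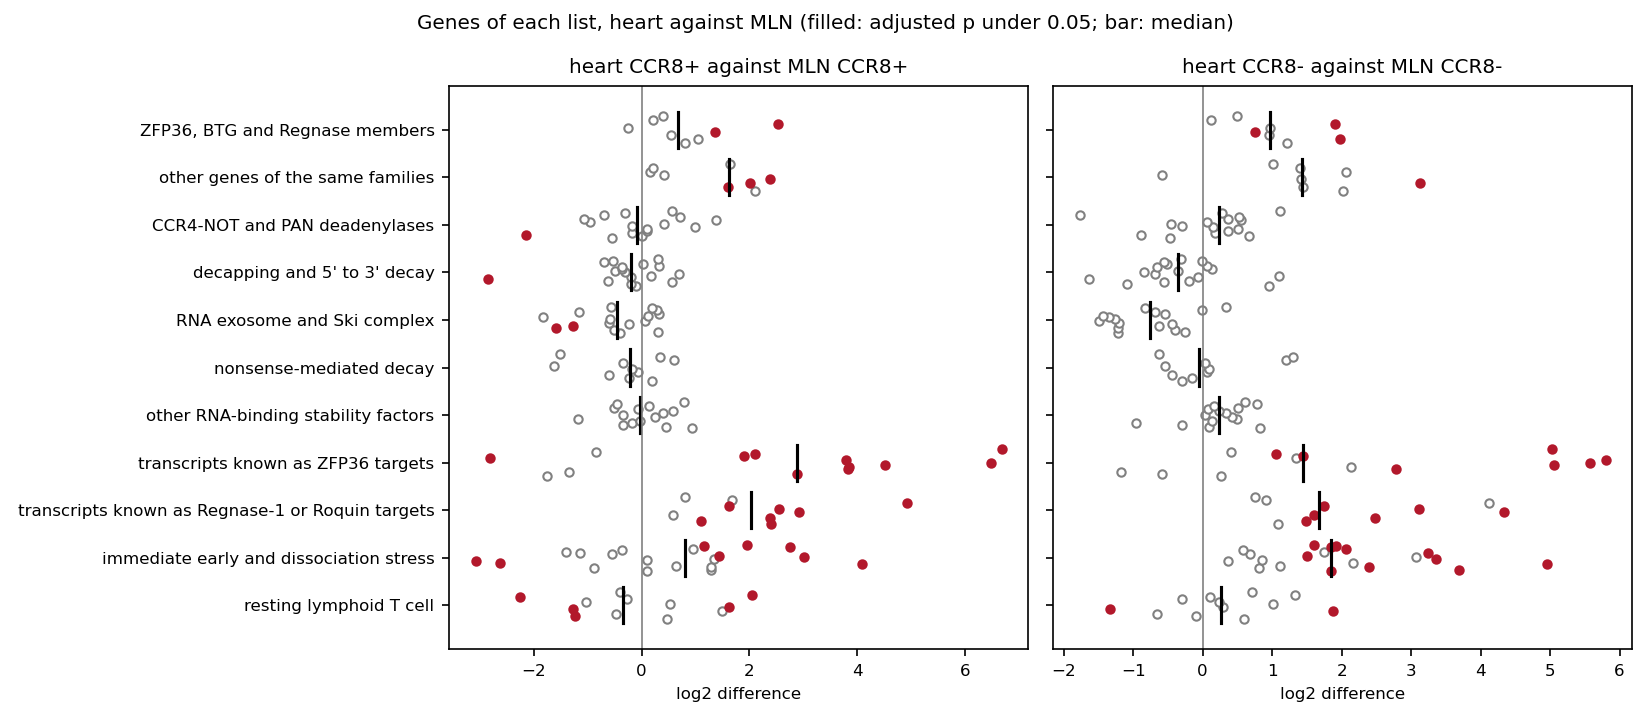
Differences on the log2 scale, heart minus MLN, for the tested genes of 11 lists in CCR8+ (left) and CCR8- Tregs (right); filled points had an adjusted p under 0.05 in limma and black bars are list medians. The members, their relatives, the transcripts known as their targets and the immediate early genes lay mostly to the right of 0. The exosome and decapping genes lay mostly to the left.

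Many tested transcripts that these proteins are known to lower were higher in the heart, but several of them were tested only because of their heart values. Of 13 tested transcripts known as ZFP36 targets, 9 rose and 1 fell in heart CCR8+ against MLN CCR8+ Tregs, with a median of 2.88. Over all tested genes 5.82% rose and 3.97% fell, with a median of -0.08. Csf2, Il17a, Ccl3, Ccl4, Ier3 and Cdkn1a passed the filter on low values only with their heart libraries. Il2, Il4 and Il13 did not pass it, with values up to 2.95 and 5.45 in MLN CCR8- and 1.12 in heart CCR8+ libraries, respectively. Csf2, Il17a, Ccl3, Ccl4, Ier3 and Cdkn1a were all among the 9 that rose in CCR8+ Tregs, so this count and median depend largely on the filter. Of the other tested targets, Il10, Pim1 and Hif1a rose and Myc fell. Tnf, Ifng and Notch1 had lower means in heart CCR8+ (3.16, 1.49 and 2.11) than in MLN CCR8+ Tregs (4.92, 2.84 and 2.97) without being called. Cdkn1a, the cell cycle inhibitor p21, averaged 6.68 ± 0.68 in heart CCR8+ libraries and was listed at 0 in all 4 MLN CCR8+ libraries (adjusted p = 9.37e-07 in limma). Il17a, a cytokine, measured 0.08 to 6.07 in heart CCR8+ libraries and was listed at 0 in all 4 MLN CCR8+ libraries (adjusted p = 0.0317). The chemokine genes Ccl4 and Ccl3, which macrophages also express, measured 1.05 to 11.53 and 0.90 to 9.95 in heart CCR8+ libraries, against 0.00 to 0.14 and 0.00 to 1.98 in MLN CCR8+ libraries (adjusted p = 0.00973 and 0.0217). The gene that fell was Myc, a transcription factor of growth, at 4.76 ± 1.27 in heart CCR8+ and 7.58 ± 0.50 in MLN CCR8+ Tregs (adjusted p = 0.00438). In CCR8- Tregs 7 of these 13 rose and none fell, with a median of 1.44, against 2.95% and -0.10 over all tested genes.

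Of 10 tested transcripts known as Regnase-1 or Roquin targets, 7 rose and none fell in heart CCR8+ against MLN CCR8+ Tregs, with a median of 2.03. Over all tested genes 5.82% rose there, with a median of -0.08. In CCR8- Tregs 6 of the 10 rose and none fell, with a median of 1.67, against 2.95% and -0.10 over all tested genes. Il6, Il1b and Ptgs2 passed the filter on low values only with their heart libraries. Rel, an NF-kB subunit, averaged 6.10 ± 0.21 in heart CCR8+ and 3.55 ± 0.46 in MLN CCR8+ Tregs (adjusted p = 2.36e-04), and 6.06 ± 0.26 in heart CCR8- and 2.94 ± 0.74 in MLN CCR8- Tregs (adjusted p = 9.18e-05). Icos, a costimulatory receptor, averaged 9.22 ± 0.09 in heart CCR8+ and 6.81 ± 0.70 in MLN CCR8+ Tregs (adjusted p = 7.20e-05). Il1b, a cytokine of macrophages and monocytes, measured 0.63 to 9.20 in heart CCR8+ libraries and was listed at 0 in all 4 MLN CCR8+ libraries (adjusted p = 0.0241). Macrophage and monocyte markers moved with the same comparisons, as given above. With markers of other cells as a covariate 5 of the 13 and 4 of the 10 were called as higher in CCR8+ Tregs, with medians of 2.16 and 1.35, and 0 of either list in CCR8- Tregs, with medians of 1.54 and 1.82. Without the 2 heart libraries 7 and 6 were called as higher in CCR8+ and 5 and 7 in CCR8- Tregs.

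Within the node, target transcripts went both ways between CCR8+ and CCR8- Tregs, where 4.14% of all tested genes were called, 2.09% as lower. Of the 13 ZFP36 targets 1 rose, Myc (7.58 ± 0.50 in CCR8+, against 3.34 ± 1.29 in CCR8- Tregs of the node), and 2 fell, Hif1a and Cdkn1a. Of the 10 Regnase-1 or Roquin targets 1 rose, Tnfrsf4 (10.36 ± 0.29 in CCR8+, against 9.07 ± 0.41 in CCR8- Tregs of the node), and 1 fell, Icos (6.81 ± 0.70 and 8.15 ± 0.51 in the same order). Within the heart 1 of the 13 rose, Csf2, the growth factor GM-CSF, where 0.366% of all tested genes were called. Csf2 was listed at 0 in all heart CCR8- libraries and passed the filter only through heart CCR8+ libraries, at 2.65 to 3.35. None of the 10 was called within the heart (0 in limma), and 1 had an unadjusted p under 0.05, against 11.1% of all tested genes.

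The AU-rich core TATTTAT was also read across all genes, a grouping chosen after values were seen. Of the 979 tested genes with 2 or more copies in the 3' UTR, 9.40% were called higher and 1.43% lower in heart CCR8+ against MLN CCR8+ Tregs, and their median difference was 0.27. Of the 7169 genes with no copy, 5.11% were called higher and 4.91% lower, with a median of -0.18. The 3' UTRs of the first set were longer, with a median of 2722 bases against 722. Among 3' UTRs of 2000 to 3000 bases, 11.5% of 191 genes with 2 or more copies were called higher and 1.05% lower, against 6.33% and 3.09% of 679 genes with none. The medians of these 191 and 679 genes were 0.32 and 0.00. In heart CCR8- against MLN CCR8- Tregs, 4.7% of the 979 genes were called higher, against 2.82% of the 7169 without a copy. With 3' UTRs of 2000 to 3000 bases these shares were 4.19% and 2.21%, and the medians were close, at 0.07 and -0.02. In MLN CCR8+ against MLN CCR8- Tregs, 0.613% of the 979 genes were called higher and 2.55% lower, against 2.59% and 1.97% of the 7169 without a copy. Among 3' UTRs of 2000 to 3000 bases this was 0.524% and 2.62% of the 191 genes, against 1.03% and 2.21% of the 679 with none.

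Immediate early and dissociation stress genes (a list that holds no member) moved with tissue. Of 20 such genes 11 rose and none fell in heart CCR8- against MLN CCR8- Tregs, with a median of 1.85, where 2.95% of all tested genes rose. In CCR8+ Tregs 6 rose and 2 fell, with a median of 0.80, where 5.82% of all tested genes rose and 3.97% fell. Their mean was 5.80 to 7.02 in heart CCR8- libraries, against 4.08 to 4.59 in MLN CCR8- libraries, and 5.16 to 5.88 in heart CCR8+ libraries, against 4.50 to 5.63 in MLN CCR8+ libraries. Atf3, a stress-induced transcription factor, was higher in the heart in both (4.11 ± 1.64 in heart CCR8+ and 0.01 ± 0.03 in MLN CCR8+ Tregs, adjusted p = 0.00240). Atf3 measured at most 0.05 in MLN CCR8+ and 0.19 in MLN CCR8- libraries, so it passed the filter on low values only through heart libraries. Within the heart 0 of the 20 were called, as given above. In the interaction of tissue and CCR8 1 of the 20 was called, Egr1 (-4.79, adjusted p = 0.0188), where 0.405% of all tested genes were called. At an unadjusted p under 0.05, 10 of the 20 had a negative interaction, against 12.3% of all tested genes in either direction. Within the node 5 of the 20 rose in CCR8+ Tregs and 1 fell, Klf6, in the comparison in which Btg1 fell. Klf6 averaged 4.20 ± 0.84 in CCR8+, against 5.90 ± 0.37 in CCR8- Tregs of the node (adjusted p = 0.0103). Of all tested genes 4.14% were called there, 2.09% as lower. With the covariate for other cells 0 of the 20 were called between heart CCR8- and MLN CCR8- Tregs, where 12 genes were called of all tested, and the list's median difference was 1.24; without the 2 heart libraries 7 were, all higher. The part of cell handling in the values of the members was not tested.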

How the data were processed

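Per the labels, each library was made from about 100 Tregs sorted by magnetic beads and then by flow cytometry, with the NEBNext Ultra RNA kit. Per the submitters' processing notes, HISAT2 2.0.5, featureCounts 1.5.0-p3 and mm10 (GRCm38) were used. The deposited table has 19219 entries, of which 24 named as dates were left out. Its columns are called FPKM per the file headers. The deposited values were taken as log2(FPKM + 1), since their top value was 14.899 in all 16 libraries and unlogged sums were 1007109 to 1007347; sums so alike could also be TPM, and no source used here gives the log or normalization step.

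The test covered the 10369 genes that reached an FPKM of 1 in 4 or more libraries. limma 3.58.1 (R 4.3.3, variance trend on) fitted group means, with 12 residual and 7 prior degrees of freedom, and was tested on simulated data. The members and gene lists were chosen with earlier results of these data known, so lists are given as counts and medians. Named are all members, the 3 genes most like each, and from each list called genes with the largest differences; Malt1, Hif1a, Egr1, Lyz2, Cd68, Pdgfra, Icos and Klf6 were named after values were seen where that rule did not reach them. Replicate numbers were not taken as pairs (their deviations from group means correlated by -0.0933 to 0.0589). The 3' UTRs come from GENCODE vM21 principal transcripts. Alternatives were other pseudocounts, filters and scalings, fits of 2 groups, a replicate block, array weights and leaving out each library; a covariate for markers of other cells (fibroblast, macrophage and endothelial) and the removal of 2 heart libraries came later, once values had been seen.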

Additional observations from a re-analysis of the deposited data

Results flagged for a closer look

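In 32 checks of the 8 genes in groups of 4 libraries, 1 library stood far from the others of its group: Zc3h12d measured 2.55 in MLN CCR8- replicate 2, against 3.74 to 3.94 in the other libraries. Chance flags about 1 in 20 such groups.

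In 3 genes of the target and immediate early lists the difference between CCR8+ and CCR8- Tregs differed between heart and MLN by the interaction in limma. It was -4.79 for Egr1 (adjusted p = 0.0188), -4.16 for Myc (adjusted p = 0.0283) and 3.46 for Csf2 (adjusted p = 0.0321). Csf2 passed the filter on low values only through heart CCR8+ libraries, the group in which it was higher. Of all tested genes 0.405% were called in this interaction.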

How the results depend on the processing

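Some calls held in all 16 fits without 1 library and under 9 other alternatives (pseudocount, filters, scalings, 2 groups, block and weights). These were Btg1 and Zc3h12a between heart CCR8+ and MLN CCR8+ Tregs and Zfp36l1 between heart CCR8- and MLN CCR8- Tregs. Btg1 in MLN CCR8+ against MLN CCR8- Tregs did so too. With the covariate for other cells, Zfp36l1 lost its call (adjusted p = 0.141 in limma) and the other 3 held. The covariate holds fibroblast, macrophage and endothelial markers, whose median differences between the MLN groups were -0.02, 0.50 and -0.07. B cell markers, with a median of 3.10 there, are not in it, so this fit cannot address their part in Btg1. Without 1 library the genes called numbered 3 to 52 for heart CCR8+ against heart CCR8-, 273 to 469 for MLN CCR8+ against MLN CCR8-, 696 to 1115 for heart CCR8+ against MLN CCR8+, 266 to 483 for heart CCR8- against MLN CCR8- and 28 to 62 for the interaction. Members called numbered 2 to 3 for heart CCR8+ against MLN CCR8+ and 1 to 5 for heart CCR8- against MLN CCR8-.

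For heart CCR8+ against heart CCR8- the 38 genes became 13 with no filter, 5 with only these groups fitted, 17 with the covariate for other cells and 11 without the 2 heart libraries. Heart CCR8- against MLN CCR8- gave 305 genes with no filter (473 before), 204 with only these groups, where 1 member was called, and 12 with the covariate, where 0 were. MLN CCR8+ against MLN CCR8- gave 169 with only these groups. Heart CCR8+ against MLN CCR8+ gave 390 with the covariate, and 4 members called with only these groups. The interaction gave 18 with no filter. With the replicate block, 20 genes were called for heart CCR8+ against heart CCR8- and Zc3h12a lost its call for heart CCR8- against MLN CCR8- (adjusted p = 0.0684); the numbers share no pairing in the labels. Zc3h12a also lost it with a pseudocount of 0.1 (0.0786), only these groups (0.133) and array weights (0.0570). Median-of-ratios scaling gave 275 genes higher and 174 lower for MLN CCR8+ against MLN CCR8-, against 212 and 217, and 352 and 119 for heart CCR8- against MLN CCR8-, against 306 and 167.

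Signs turned only for values that were not called. With array weights Zc3h12d was -0.03 in heart CCR8+ against heart CCR8-, -0.02 in MLN CCR8+ against MLN CCR8- and 0.00 (below 0) in the interaction. With the covariate it was -0.28 in heart and -0.39 in the interaction, and Rc3h1 was -0.33 in heart CCR8+ against MLN CCR8+, -0.66 in heart CCR8- against MLN CCR8-, with an interaction of 0.33. Without the 2 heart libraries Zc3h12d was -0.24 in heart and -0.27 in the interaction. Without 1 library Zc3h12d ranged from -0.23 to 0.42 in heart, -0.36 to 0.32 in MLN, -0.08 to 0.61 in heart CCR8+ against MLN CCR8+, -0.20 to 0.48 in heart CCR8- against MLN CCR8-, with an interaction of -0.27 to 0.49; the interaction of Zfp36 ranged from -0.80 to 0.03 and that of Rc3h1 from -0.49 to 0.28. The cause was not tested. Read depth is unknown and 4 libraries a group limit the precision.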
